A study of Mus musculus with 96 samples.

Results

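The 10 genes described here encode plasma proteins of the acute phase response: the serum amyloid A genes Saa1, Saa2 and Saa4, the orosomucoid genes Orm1 and Orm2, lipocalin 2 (Lcn2), the pentraxin genes Crp and Apcs, haptoglobin (Hp) and hemopexin (Hpx). They were chosen by name, and all 10 were found among the 24883 entries of each of 8 expression tables. In the acute phase response, cytokines such as interleukin 6 and interleukin 1 act on hepatocytes, which then change the set of plasma proteins they secrete. STAT3, NF-kB and the C/EBP factors carry that signal to the genes in the nucleus. In mice, Saa1, Saa2 and Apcs are known as strong responders, Crp as a weak one, and Saa4 as a form made without a stimulus.

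The livers came from C57BL/6J mice. Shifted mothers spent pregnancy under a light cycle that was moved 8 h earlier once in every 5 days, and control mothers under a constant cycle with 12 h of light per day. Fetuses of both kinds of mother were sampled, and so were male offspring of both, fed high-fat or low-fat chow for 12 weeks from an age of 4 weeks. The 8 arms were shifted and control mothers, shifted and control fetuses, and shifted and control offspring on each diet, where shifted and control always name the maternal schedule. Each arm held 12 libraries of liver poly(A) RNA, 3 at each of zeitgeber times (ZT, hours after lights on) 0, 6, 12 and 18. The day of gestation, the sex and pooling of the fetuses, and whether replicates were separate animals are not stated in the labels, so p-values measure the spread between libraries, which may be technical. Each arm lies in a table of its own, and the table and the arm cannot be told apart.

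The values are FPKM, fragments counted relative to transcript length and to all mapped fragments, divided here by 1 scaling factor per library within mothers, within fetuses or within offspring. FPKM corrects for length, so levels of different genes can be set side by side. Depth per library is unknown, though the step between low values puts the relative depths between 0.898 and 1.67 where that step could be read. Of the 48 offspring libraries, control high-fat ZT0 replicate 1 stands apart, with 8554 genes above 0 against 15074 to 16484 in the other offspring, and it lists Orm2 at 0. This library shared too few low values (25 genes) for a relative depth and is not in that range. Offspring calls that are lost without it are named beside their values. All 8 hepatocyte markers examined were present in every arm. In bulk liver, fewer cells of a type and less RNA per cell cannot be told apart.

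Hpx, which binds free heme, and Hp, which binds free hemoglobin, had the highest levels of the 10 genes in mothers and offspring, and Lcn2, an iron-siderophore binding protein, had the lowest. Hpx averaged 3620 ± 768 FPKM in shifted mothers and 3451 ± 527 FPKM in control mothers (SD over 12 libraries of all times, as for all arm means here). Hp averaged 2077 ± 370 FPKM in shifted mothers and 2443 ± 715 FPKM in control mothers. Orm1, a carrier of basic drugs and steroids in plasma, came next with 1436 ± 262 FPKM in shifted mothers and 1168 ± 288 FPKM in control mothers. For these 3 genes the 2 arms of mothers overlapped.

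Crp averaged 312 ± 81.5 FPKM in shifted mothers and 256 ± 43.1 FPKM in control mothers, and Apcs, which codes for serum amyloid P component, 174 ± 46.6 FPKM and 202 ± 111 FPKM in the same arms. Saa1, Saa4, Orm2 and Saa2 had arm means between 32.4 and 83.4 FPKM in mothers, and neighbours in that order did not differ beyond their spread. In offspring the order at the top was the same, with arm means of 2184 to 2747 FPKM for Hpx, 1843 to 2651 FPKM for Hp and 611 to 1285 FPKM for Orm1. Lcn2 averaged 3.68 to 5.04 FPKM in the 4 offspring arms and 18.4 to 24.5 FPKM in the 2 maternal arms, and Orm2 12.9 to 16.5 FPKM in offspring and 59.0 to 61.3 FPKM in mothers. Mothers and offspring were scaled apart, and their difference was not tested.

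**Figure D1:**
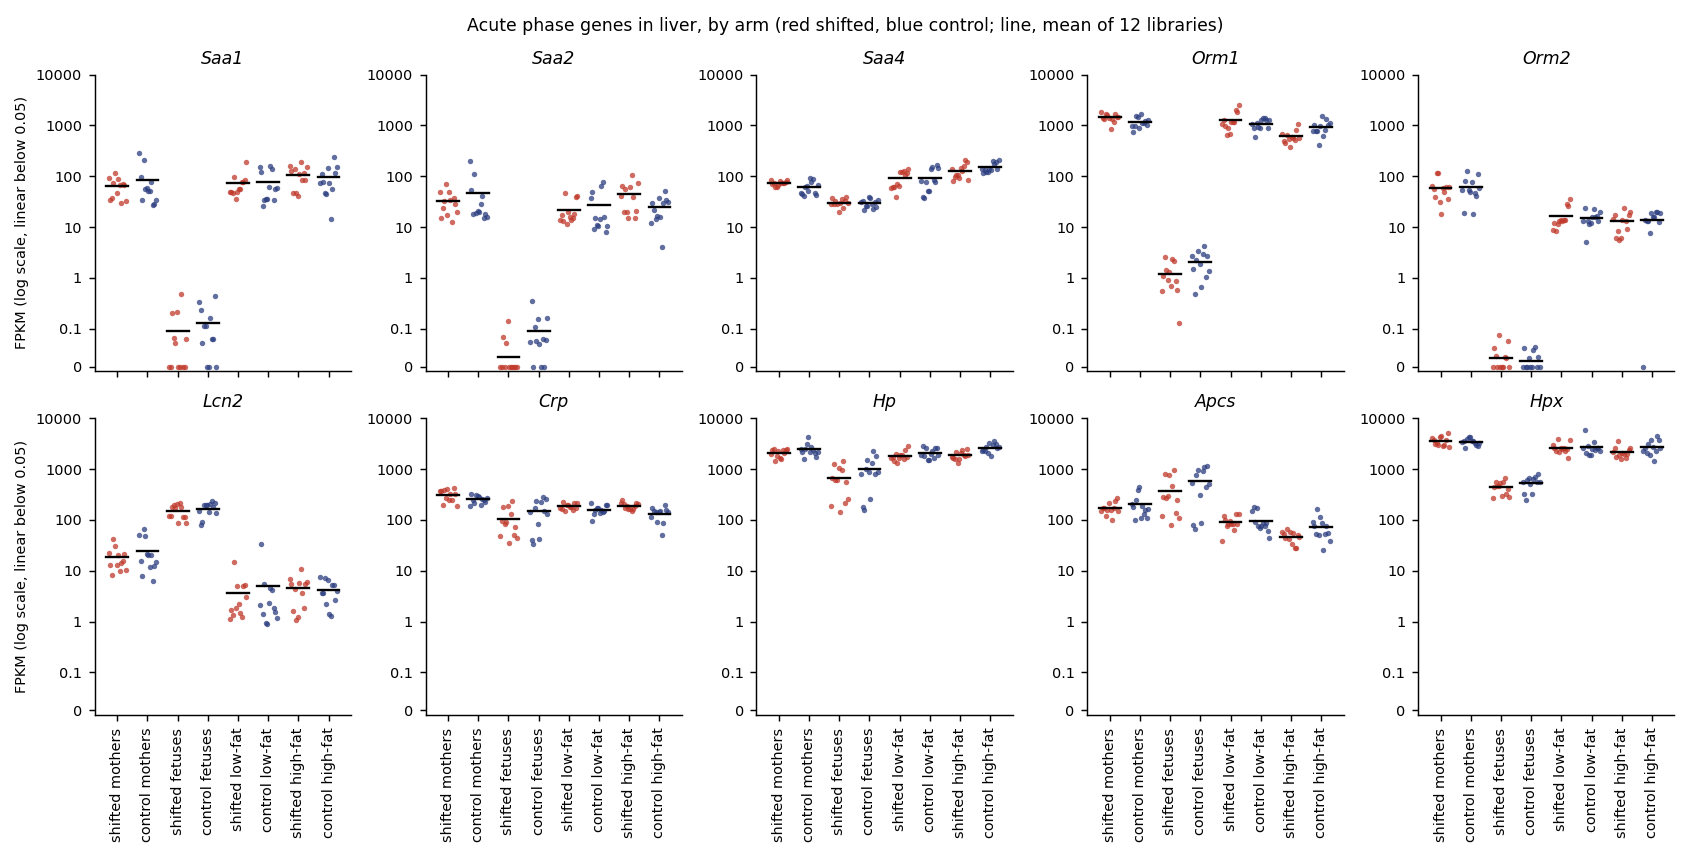
FPKM of the 10 genes (y axis, logarithmic above 0.05 and linear below) in the 8 arms (x axis), with 1 point per library, a line at the mean of 12 libraries, red for shifted and blue for control. Saa1, Saa2, Orm1 and Orm2 lie near the floor in fetuses, while Lcn2 lies highest there, with 79.4 to 231 FPKM.

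Saa1, Saa2 and Saa4 lie next to each other on chromosome 7 (RefSeq, GRCm38.p6): Saa4 at chr7:46727992-46732603 on the minus strand, Saa1 at chr7:46740497-46743181 on the minus strand and Saa2 at chr7:46751833-46754313 on the plus strand. The transcripts of Saa1 and Saa2 are alike at 94.4% of 606 aligned bases, those of Orm1 and Orm2 (chromosome 4) at 91.0% of 775 bases, and reads of such copies can be split between them in ways the tables do not show. Results for either copy are therefore uncertain on their own, and sums of both copies were tested as an alternative. Saa1 and Saa2 varied together between libraries, and no relation of Saa4 with Saa1 passed the threshold (values below). The 250 bases before the start of each Saa gene are printed with matches to the C/EBP motif TTNNGNAAT in capitals. Both strands were searched, and positions are counted back from the start of the gene in the RefSeq promoter table.
Saa1, chr7:46742981-46743230, minus strand: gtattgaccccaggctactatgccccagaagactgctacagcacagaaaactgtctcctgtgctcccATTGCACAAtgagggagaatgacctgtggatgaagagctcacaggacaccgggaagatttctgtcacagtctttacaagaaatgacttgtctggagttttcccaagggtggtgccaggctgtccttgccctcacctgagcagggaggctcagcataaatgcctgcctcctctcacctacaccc
Saa2, chr7:46751583-46751832, plus strand: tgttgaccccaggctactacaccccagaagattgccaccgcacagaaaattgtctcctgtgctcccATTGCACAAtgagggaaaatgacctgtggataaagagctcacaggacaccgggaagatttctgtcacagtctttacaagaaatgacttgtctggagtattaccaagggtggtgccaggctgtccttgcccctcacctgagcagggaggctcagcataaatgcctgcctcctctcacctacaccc
Saa4, chr7:46732604-46732853, minus strand: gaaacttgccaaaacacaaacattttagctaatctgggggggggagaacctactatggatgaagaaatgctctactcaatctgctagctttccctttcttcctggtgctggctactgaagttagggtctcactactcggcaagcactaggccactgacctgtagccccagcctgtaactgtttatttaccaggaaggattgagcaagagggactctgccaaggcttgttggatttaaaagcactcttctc
The windows of Saa1 and Saa2 share 95.6% of 249 aligned bases, and the match lies 183 to 175 bases before the start of Saa1 and 184 to 176 bases before that of Saa2. The windows of Saa1 and Saa4 share 54.3% of 199 aligned bases, and that of Saa4 holds no match to these letters. The same motif was found in the windows of Orm2 (109 to 101 bases before the start) and Crp (78 to 70 bases), so in 4 of the 8 members with an entry, and in 10.2% of all 32851 promoters of that length. These 4 include the alike windows of Saa1 and Saa2.
Orm2, chr4:63362199-63362448, plus strand: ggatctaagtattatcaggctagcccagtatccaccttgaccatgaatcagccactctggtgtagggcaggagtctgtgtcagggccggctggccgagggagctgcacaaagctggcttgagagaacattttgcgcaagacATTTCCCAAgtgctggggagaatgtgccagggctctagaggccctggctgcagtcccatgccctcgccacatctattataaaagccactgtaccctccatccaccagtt
Crp, chr1:172697806-172698055, plus strand: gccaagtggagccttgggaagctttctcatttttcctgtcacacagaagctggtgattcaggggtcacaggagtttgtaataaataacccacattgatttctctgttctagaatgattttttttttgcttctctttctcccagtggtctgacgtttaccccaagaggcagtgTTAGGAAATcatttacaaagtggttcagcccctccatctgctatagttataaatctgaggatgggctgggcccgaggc
The STAT3 motif TTCNNNGAA was found in 1 of the 8 windows, that of Apcs at 244 to 236 bases before the start, and in 7.02% of all promoters. Neither the NF-kB motif (kappa-B consensus) nor the HNF1 motif was found in the 8 windows, and they occur in 1.41% and 0.0548% of all promoters. Orm1 and Hp have no entry. A match is a run of letters, not a site shown to be bound. Whether genes with a C/EBP match vary with Saa1 was not tested. In mothers, r with Saa1 between replicates (below) was 0.974 for Saa2, 0.114 for Orm2 and -0.060 for Crp, which hold a match. For genes with a window but no match it was 0.768 for Lcn2, 0.329 for Hpx, 0.306 for Saa4 and 0.074 for Apcs.

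The spread between 3 replicates of 1 arm and time differed widely between the genes. In mothers the highest of 3 replicates exceeded the lowest by a median of 1.16-fold for Saa4, 1.33-fold for Orm1 and 1.38-fold for Hp and Hpx over the 8 groups. The median was 2.61-fold for Saa1, 3.50-fold for Saa2, 2.97-fold for Orm2 and 2.47-fold for Lcn2. The widest maternal group was control mothers at ZT0, where Saa1 measured 283, 94.8 and 33.9 FPKM and Saa2 198, 54.3 and 17.99 FPKM in replicates 1, 2 and 3. Saa1 and Saa2 were thus high in the same replicate and low in the same replicate, though reads of these 2 alike copies can be split between them. The widest group in offspring was Lcn2 in control low-fat livers at ZT0, with 2.11, 33.9 and 1.42 FPKM, where 1 library stood far above the other 2.

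In mothers, 1 of the 10 genes, Saa4, was higher under the shifted schedule at a Benjamini-Hochberg adjusted p under 0.05 (limma, over 10376 genes), where 7.91% of all genes tested were called, 3.49% higher and 4.42% lower. Saa4 measured 61.8 FPKM at the lowest, 73.2 at the median and 85.5 at the highest in shifted mothers, against 40.8, 56.1 and 90.6 FPKM in control mothers. The arms overlapped, and the shifted libraries spanned the narrower range. The mean over times was 0.32 ± 0.074 higher in shifted mothers on the scale of log2(FPKM + 1) (SE, adjusted p = 0.0163), with 9 of 12 shifted libraries exceeding the control average at their own ZT. The call held in each of the alternatives run, with an adjusted p of at most 0.0356 when any 1 library was left out.

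Saa4 also varied with the time of day in control mothers, where it was the 1 member called among 4.25% of all genes. Control mothers had 46.9, 45.7 and 40.8 FPKM at ZT0, 62.1, 65.1 and 50.1 FPKM at ZT6, 90.6, 78.0 and 88.3 FPKM at ZT12, and 45.9, 43.2 and 68.6 FPKM at ZT18. The 3 libraries at ZT12, the end of the light phase, lay above all 9 others. The peak exceeded the trough by 0.93 on the log2 scale (F test in limma with 3 degrees of freedom, adjusted p = 0.036). The call was lost with all genes kept (adjusted p = 0.0614), with values as deposited (0.0541), with a replicate block (0.0895) and when any of 8 of the 12 libraries was left out (up to 0.131).

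Shifted mothers had 85.5, 70.2 and 73.1 FPKM of Saa4 at ZT0, 61.8, 62.4 and 66.6 at ZT6, 80.2, 73.7 and 73.3 at ZT12, and 72.7, 76.1 and 83.9 at ZT18. At ZT0 each shifted library lay above each control library, and at ZT12 the arms overlapped. No member was called for time in shifted mothers, where 0.67% of all genes were. The test of the difference between the 2 daily profiles gave an adjusted p of 0.0547 for Saa4 and called none of the 10 members, against 1.65% of all genes, and with genes of low values kept it called Saa4 at 0.0478. Apcs in control mothers measured 245, 384 and 454 FPKM at ZT6 and 107, 184 and 131 FPKM at ZT12, and its adjusted p for time of day was 0.0651, or 0.0448 with values as deposited.

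**Figure D2:**
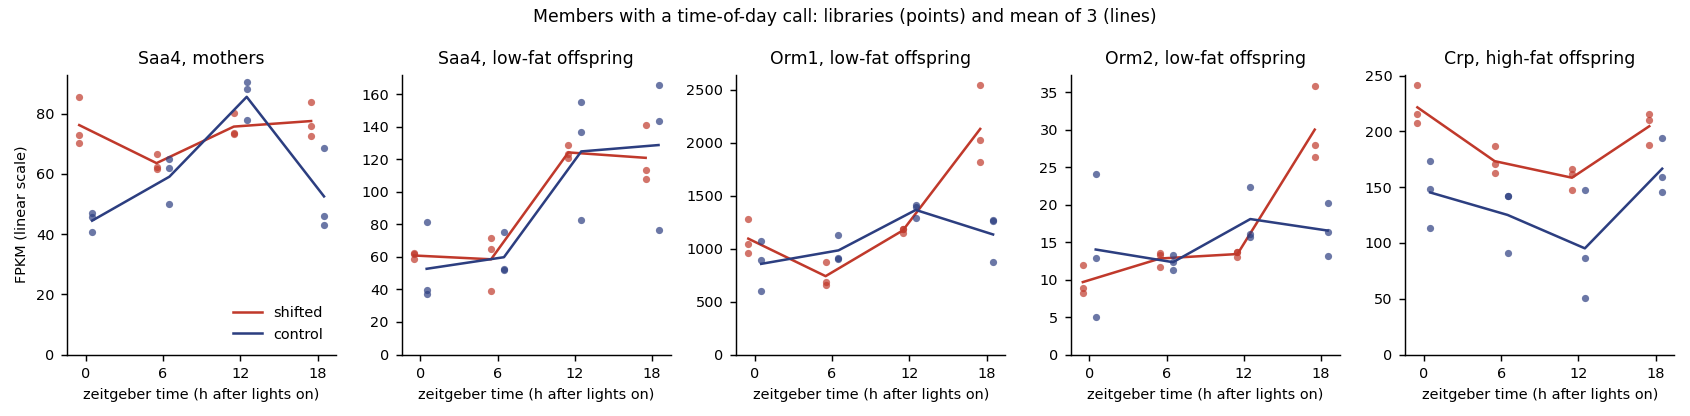
FPKM (y axis, linear) against zeitgeber time (x axis, hours after lights on) for the genes and stages with a time-of-day call, with points for libraries, lines for the mean of 3, red for shifted and blue for control. Saa4 peaks at ZT12 in control mothers, and Orm1 and Orm2 are highest at ZT18 in shifted low-fat offspring.

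Of the other 9 members in mothers, none was called. Orm1 ran from 829.8 to 1803 FPKM with a median of 1431 in shifted mothers and from 731 to 1692 with a median of 1120.2 in control mothers, which overlap. Its difference was 0.31 ± 0.11 on the log2 scale (SE, adjusted p = 0.0812), with 10 of 12 shifted libraries over the control average at their ZT. For Saa1 and Saa2 the 95% intervals of the shifted minus control difference ran from -0.77 to 0.53 and from -0.89 to 0.65 on the log2 scale, so that changes of that size in either direction lie within the spread of these libraries.

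In fetal liver Saa1, Saa2 and Orm2 were at the limit of detection. Saa1 reached at most 0.486 FPKM in shifted fetuses and 0.433 FPKM in control fetuses, and it was listed at 0 in 6 and 3 libraries of the 2 arms. The value of 1 fragment is not known. For each gene the step that put these same values nearest to whole multiples was taken, allowing for relative depth. With it, 15 of 15, 11 of 12 and 11 of 11 values above 0 lay within 0.05 of a whole multiple. Because the step was fitted to them, this is no independent check. By that step the values correspond to 44 fragments of Saa1 in the 24 fetal libraries together (17 in shifted and 27 in control fetuses), 23 of Saa2 (4 and 19) and 20 of Orm2 (12 and 8). These totals depend on the fitted step. Orm1 measured 0.131 to 2.60 FPKM in shifted fetuses, with a median of 0.995, and 0.476 to 4.23 FPKM in control fetuses, with a median of 2.09.

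The filter on low values left 7 members to test in fetuses, and none was called between shifted and control fetuses, against 3.78% of all genes (2.31% higher and 1.47% lower). The lowest adjusted p was that of Orm1, whose mean was lower in shifted fetuses by -0.47 ± 0.20 on the log2 scale (SE, adjusted p = 0.192), in 10 of 12 libraries. Hp measured 140 to 1441 FPKM in shifted fetuses, with a median of 609.5, and 155 to 2261 FPKM in control fetuses, with a median of 878. The intervals for Hp and Apcs ran from -1.44 to 0.40 and from -1.58 to 0.54 on the log2 scale. Time of day and its interaction with the schedule called none of the 7, and 0.0% of all genes in limma, with 386 genes at an unadjusted p under 0.05 for the interaction, 602 for time in shifted and 501 in control fetuses.

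The spread between fetal replicates was of another kind, shared by Hp, Apcs, Crp and Hpx. At ZT12 the 3 shifted fetal libraries held 140, 972 and 1441 FPKM of Hp, and the 3 control ones 260, 1289 and 2261 FPKM. In the same order Apcs measured 78.8, 465 and 944 FPKM in shifted and 87.6, 901 and 1096 FPKM in control fetuses, so that replicate 1 was low in both genes and both arms. Over all 24 fetal libraries, Hp lay between 140 and 260 FPKM in 7 (4 shifted and 3 control) and between 552 and 2261 FPKM in the other 17, with none between. The 7 low libraries belonged to ZT0, ZT12 and ZT18.

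The fetal libraries were split at this widest gap in Hp, and relations with Hp were examined within each part, a step chosen after the data were seen. The split rests on Hp alone. Whether the 2 parts, called clusters here, are distinct groups was not tested. These p-values come from permuting all libraries of a cluster, without regard to arm or time, so differences between arms and times are part of the relations. In the 17 libraries with more Hp, log2 values of Apcs followed Hp with Pearson's r = 0.927 and Spearman's rho = 0.966 (permutation p = 1e-05, the smallest that 100000 resamples can give, adjusted p = 9.2e-05 over the r and rho of 46 relations), and r was 0.934 without the 2 libraries farthest from the median of Hp. Crp had r = 0.922 and rho = 0.931, and Hpx r = 0.916 and rho = 0.897, both with permutation p = 1e-05 and adjusted p = 9.2e-05, and r was 0.910 and 0.898 without the same 2 libraries. Orm1 (r = 0.849, rho = 0.794, permutation p = 3e-05, adjusted p = 0.000184) and Lcn2 (r = 0.635, rho = 0.640, permutation p = 0.00599, adjusted p = 0.022) also followed Hp, with r of 0.807 and 0.524 without those libraries. Saa4 went the other way, with r = -0.68 and rho = -0.72 (permutation p = 0.00267, adjusted p = 0.0112), and -0.59 without the 2 libraries. In the 7 libraries with least Hp no relation passed an adjusted p of 0.05 (exact permutation test). Raw p lay between 0.153 and 0.735 for r and between 0.0881 and 0.7825 for rho, with the marker sums below included.

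In the 17 libraries with more Hp, the marker sums of hepatocytes and of erythroid cells were related to Hp. Those of neutrophils and macrophages did not pass an adjusted p of 0.05 by r or rho. For neutrophils r was 0.5496 (permutation p = 0.02298, adjusted p = 0.06607), and for macrophages r was 0.417 (permutation p = 0.0975, adjusted p = 0.1993). Within the 17 libraries the summed level of 8 hepatocyte markers followed Hp (r = 0.928, rho = 0.878, permutation p = 1e-05, adjusted p = 9.2e-05, r = 0.903 without the 2 libraries), and that of 7 erythroid markers went down with it (r = -0.88, rho = -0.88, permutation p = 1e-05, adjusted p = 9.2e-05, r = -0.84). The hepatocyte sum ran from 25738 to 69703 FPKM in shifted fetuses and from 24012 to 81888 FPKM in control fetuses. The erythroid sum ran from 1272 to 2942 FPKM in shifted fetuses and from 1234 to 2605 FPKM in control fetuses, with none of the 7 markers at 0. Their part in the spread of Hp, Apcs, Crp and Hpx was not tested.

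**Figure D3:**
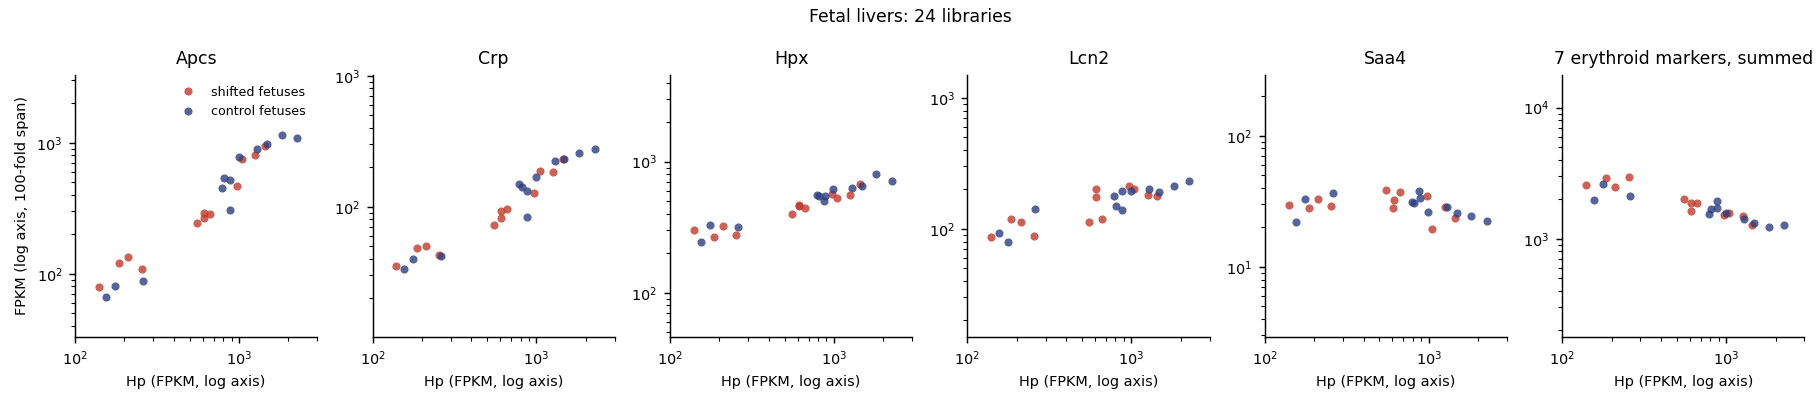
FPKM of Apcs, Crp, Hpx, Lcn2, Saa4 and the summed erythroid markers (y axes, logarithmic, each spanning 100-fold) against FPKM of Hp (x axis, logarithmic) in 24 fetal libraries, red for shifted and blue for control. Both arms hold low and high libraries, with a gap in Hp between 260 and 552 FPKM, and Saa4 stays between 19.6 and 38.4 FPKM.

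Against their mothers' livers, fetal livers held less of 8 members and more Lcn2, with mothers and fetuses scaled together. These comparisons called 85.4% of all genes in shifted and 84.9% in control livers (42.3% and 41.9% higher, 43.1% and 43.0% lower), so that 9 of 10 members called in each stands beside a background of most genes. Hpx measured 199 to 512 FPKM in shifted fetuses against 3525 to 6820 FPKM in shifted mothers, and 184 to 622 FPKM in control fetuses against 3332 to 5637 FPKM in control mothers. The ranges did not overlap, and the difference was -3.86 ± 0.15 in shifted and -3.53 ± 0.15 in control livers on the log2 scale (SE, adjusted p = 1.58e-23 and 3.17e-22). Orm1 stood furthest apart, with 0.101 to 1.97 FPKM in shifted fetuses against 1081 to 2380 FPKM in shifted mothers, and 0.358 to 3.27 FPKM in control fetuses against 944 to 2247 FPKM in control mothers. Saa1, Saa2 and Orm2 were also called lower, and they passed the filter on low values only through the mothers, so their calls add nothing to the levels given above.

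Saa4, Crp and Hp were lower in fetuses by smaller amounts. Saa4 differed by -2.03 ± 0.095 in shifted and -1.75 ± 0.095 in control livers, Crp by -2.55 ± 0.29 and -1.85 ± 0.29, and Hp by -2.77 ± 0.33 and -2.46 ± 0.33 (log2, SE), with the largest adjusted p 3.44e-07 for Crp in control livers. Apcs had 59.9 to 720.02 FPKM in shifted fetuses against 132 to 353 FPKM in shifted mothers, and 50.3 to 884 FPKM in control fetuses against 128 to 589 FPKM in control mothers. The ranges of Apcs overlapped, and its differences of -0.07 (adjusted p = 0.879) and 0.36 (adjusted p = 0.385) were not called. With values as deposited, where the median of all genes lies 0.645 higher in shifted and 0.55 higher in control fetuses than in mothers and not near 0, they became 0.78 (adjusted p = 0.0424) and 1.08 (adjusted p = 0.006).

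Lcn2 measured 65.8 to 163 FPKM in shifted fetuses against 10.9 to 55.2 FPKM in shifted mothers, without overlap, and 60.2 to 179 FPKM in control fetuses against 8.42 to 86.9 FPKM in control mothers, with overlap. It was higher by 2.26 ± 0.23 in shifted and 2.23 ± 0.23 in control livers (log2, SE, adjusted p = 4.25e-11 and 6.21e-11), a fold of 4.78 and 4.69 on the scale of FPKM + 1. Lcn2 is also a product of neutrophils, and the 11 neutrophil markers found in the tables summed to 4372 to 9512 FPKM in shifted fetuses and 4279 to 9204 FPKM in control fetuses, against 5.62 to 33.1 FPKM in shifted mothers and 3.85 to 19.5 FPKM in control mothers (each stage scaled on its own). All 11 were above 0 in both fetal arms, and their part in the level of Lcn2 was not tested. Saa3, a serum amyloid A gene of macrophages and other cells, was higher in fetuses too, at 39.1 ± 23.2 FPKM against 12.5 ± 4.01 FPKM in the shifted livers and 47.9 ± 26.1 FPKM against 9.17 ± 6.32 FPKM in the control livers (limma, adjusted p = 3.65e-05 and 4.48e-09). Most of the 19 other genes that rise in the acute phase went the other way. In shifted livers 15 of the 19 were called, 2 higher and 13 lower, beside 85.4% of all genes. In control livers 13 were called, 2 higher and 11 lower, beside 84.9%.

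In offspring on the low-fat diet the maternal schedule called none of the 10 members, and 0.00921% of all genes in limma (1 gene, with 806 at an unadjusted p under 0.05). Crp had 147 to 228 FPKM with a median of 182 in shifted low-fat offspring and 94.2 to 211 FPKM with a median of 155 in control low-fat offspring, and its adjusted p was 0.704. The intervals of Orm1 and Hp in this comparison ran from -0.11 to 0.45 and from -0.42 to 0.056 on the log2 scale.

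On the high-fat diet the maternal schedule called 5 of the 10 members, where 48.1% of all genes were called (26.3% higher and 21.9% lower), so the share of members called was near that of all genes. Crp and Saa2 were higher in shifted offspring and Orm1, Hp and Apcs lower. Crp, an opsonin that binds phosphocholine, measured 148 to 241 FPKM with a median of 187 in shifted high-fat offspring, against 51.1 to 195 FPKM with a median of 144 in control high-fat offspring. The arms overlapped, and each of the 12 shifted libraries exceeded the control average at its ZT. The difference was 0.57 ± 0.12 (log2, SE, adjusted p = 0.000225), 1.48-fold, and Crp was called in every alternative run.

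Orm1 measured 370.2 to 1089 FPKM with a median of 562 in shifted high-fat offspring, against 412 to 1506 FPKM with a median of 880.4 in control high-fat offspring, and Hp 1320.3 to 2484 FPKM with a median of 1854 against 1801 to 3522 FPKM with a median of 2663 in the same arms. For both genes each of the 12 shifted libraries fell short of the control average at its ZT, though the arms overlapped. Orm1 differed by -0.57 ± 0.14 and Hp by -0.50 ± 0.12 (log2, SE, adjusted p = 0.00103 and 0.000656). With values as deposited, which put the median of all genes 0.208 higher in shifted offspring against 0.0111 after scaling and split the calls into 4972 higher and 907 lower against 2854 and 2373, Orm1 and Hp fell short of the threshold (adjusted p = 0.0762 and 0.102). They also did so when trends with GC content and transcript length were removed (0.0501 and 0.128).

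Apcs measured 27.8 to 67.6 FPKM with a median of 48.4 in shifted high-fat offspring, against 25.3 to 162 FPKM with a median of 66.1 in control high-fat offspring, and 11 of 12 shifted libraries fell short of the control average at their ZT. Its difference of -0.53 ± 0.21 (log2, SE, adjusted p = 0.0338) was not called without the library that stands apart (adjusted p = 0.0696), with values as deposited (0.304), with GC and length trends removed (0.121), with genes of low values kept (0.0596), or when any of 10 of the 48 libraries was left out. Saa2 measured 14.99 to 108 FPKM with a median of 40.4 in shifted high-fat offspring, against 4.06 to 50.7 FPKM with a median of 25.6 in control high-fat offspring. It was higher by 0.77 ± 0.32 (log2, SE, adjusted p = 0.0477), with 7 of 12 shifted libraries over the control average at their ZT. The call was lost with a pseudocount of 0.1 (adjusted p = 0.054), with genes of low values kept (0.0841), with a replicate block (0.0547), in a fit of the 2 high-fat arms (0.0652) and without the library that stands apart (0.0691), and in all when any of 25 of the 48 libraries was left out (up to 0.126). Saa1 and Saa2 summed gave 0.44 (adjusted p = 0.209). The summed hepatocyte markers ran from 37894 to 66503 FPKM in shifted and from 53039 to 87475 FPKM in control high-fat offspring, with none of the 8 at 0. Taken singly, 5 of the 8 were called, 2 higher and 3 lower, beside 48.1% of all genes. Their median difference was 0.021 on the log2 scale, against 0.0111 over all genes. Alb, Apoa1 and Ttr are also among the genes that fall in the acute phase (below), and the part of these markers in the differences was not tested.

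**Figure D4:**
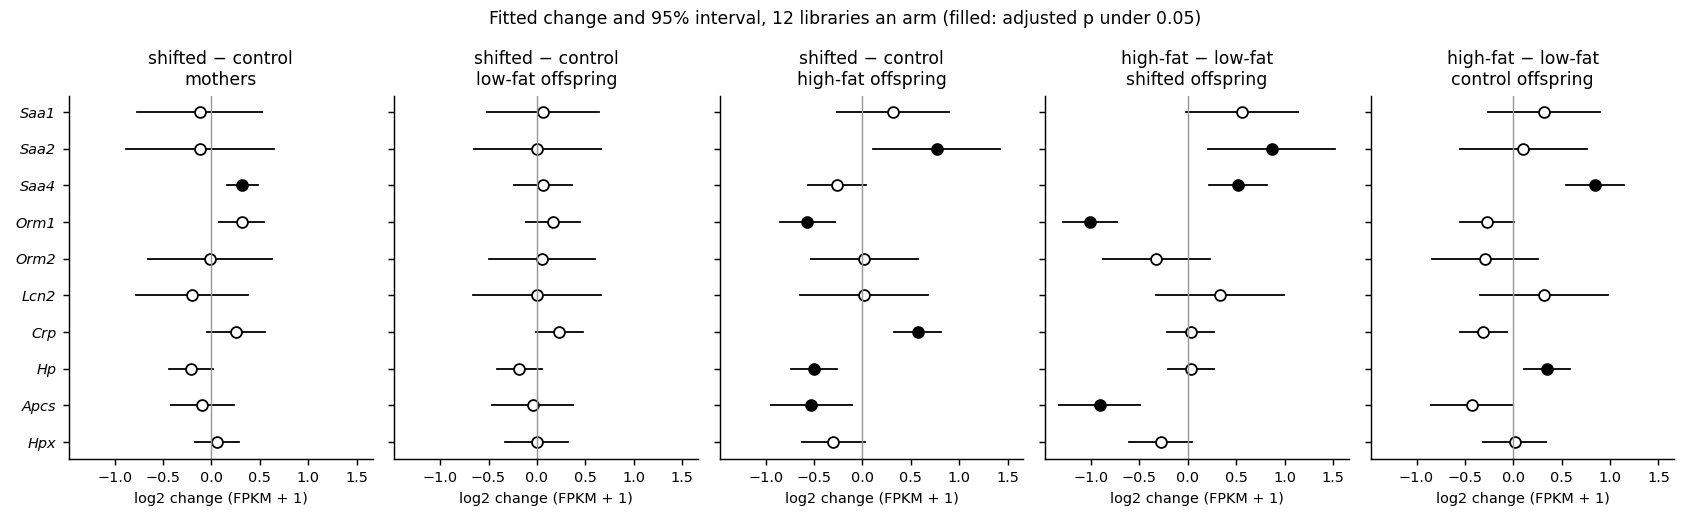
Fitted difference on the log2(FPKM + 1) scale (x axis) with its 95% interval for each gene (rows) in 5 comparisons of 12 libraries an arm (panels), where a filled point has an adjusted p under 0.05. Orm1 and Apcs lie lowest and Saa2 highest in the high-fat minus low-fat panel of shifted offspring.

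Saa4 was higher on the high-fat diet in offspring of both kinds of mother. The diet comparisons share their arms with the schedule comparisons above. In offspring of shifted mothers Saa4 measured 80.8 to 213 FPKM with a median of 116 on the high-fat diet, against 38.8 to 141 FPKM with a median of 89.9 on the low-fat diet. In offspring of control mothers it measured 116 to 207 FPKM with a median of 136 on the high-fat diet, against 37.3 to 166 FPKM with a median of 79.0 on the low-fat diet. The arms overlapped in both. The differences were 0.52 ± 0.15 in 11 of 12 libraries (adjusted p = 0.0105) and 0.84 ± 0.15 in 12 of 12 libraries (log2, SE, adjusted p = 0.000392), and both held in every alternative run.

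In offspring of shifted mothers 4 of 10 members were called for diet (23.2% of all genes, 11.5% higher and 11.7% lower), and in offspring of control mothers 2 of 10 (14.5%, 6.73% higher and 7.82% lower). Orm1 measured 370.2 to 1089 FPKM in shifted high-fat offspring against 660.1 to 2548 FPKM in shifted low-fat offspring, and Apcs 27.8 to 67.6 FPKM against 37.8 to 133 FPKM. The ranges overlapped, and for both genes each of the 12 high-fat libraries fell short of the low-fat average at its ZT. Orm1 fell by 1.01 on the log2 scale (SE 0.14, adjusted p = 3.03e-06), and Apcs fell by 0.91 (SE 0.21, adjusted p = 0.00158). In offspring of control mothers the same genes differed by -0.27 ± 0.14 (adjusted p = 0.17) and -0.43 ± 0.21 (log2, SE, adjusted p = 0.147), not called. With values as deposited, Orm1 was called there too (-0.40, adjusted p = 0.0455), and so was Crp (-0.44, adjusted p = 0.0208), which was not called after scaling (-0.31, adjusted p = 0.0764). Those values split the calls of all genes into 345 higher and 2014 lower, against 731 and 849 after scaling.

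Saa2 was higher on the high-fat diet in offspring of shifted mothers, at 0.87 ± 0.32 (log2, SE, adjusted p = 0.0479), in 8 of 12 libraries. The call was lost with a pseudocount of 0.1 (adjusted p = 0.0596), with genes of low values kept (0.0849), with a replicate block (0.0556) and when any of 29 of 48 libraries was left out, and Saa1 and Saa2 summed gave 0.66 (adjusted p = 0.098). Hp was higher on the high-fat diet in offspring of control mothers, at 1801 to 3522 FPKM against 1533 to 2834 FPKM, by 0.35 ± 0.12 (log2, SE, adjusted p = 0.0404), in 11 of 12 libraries. It was not called without the library that stands apart (adjusted p = 0.0513), in a fit of these 2 arms alone (0.0933), with values as deposited (0.181), with GC and length trends removed (0.0723), with genes of low values kept (0.0700) or when any of 14 of the 48 libraries was left out.

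The test of whether the effect of the maternal schedule differed between diets called 1 of the 10 members, Orm1, against 24.2% of all genes (13.9% higher and 10.3% lower). For Orm1 the shifted minus control difference on the high-fat diet less that on the low-fat diet was -0.74 ± 0.20 (log2, SE, adjusted p = 0.00702), and -0.72 (adjusted p = 0.00958) without the library that stands apart. It missed the threshold with values as deposited (adjusted p = 0.0517) and with GC and length trends removed (0.0528). With values as deposited, the interaction of Crp was called (0.54, adjusted p = 0.0296). After scaling, those of Crp (0.34, adjusted p = 0.146), Hp (-0.32, 0.155), Apcs (-0.48, 0.23) and Saa2 (0.77, 0.224) were not called, so the calls of these genes on the high-fat diet are not shown to differ from the low-fat diet.

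Time of day in offspring called 3 members in shifted low-fat offspring, Orm1, Orm2 and Saa4 (20.5% of all genes), and 1 in control low-fat offspring, Saa4 (14.4%). Orm1 in shifted low-fat offspring measured 1045, 1278 and 963 FPKM at ZT0, 660.1, 876 and 686 at ZT6, 1148, 1190 and 1182 at ZT12, and 2029, 1818 and 2548 at ZT18. The 3 libraries at ZT18 lay above all 9 others. In control low-fat offspring it measured 1074, 898 and 599 FPKM at ZT0, 1132, 917 and 904 at ZT6, 1292, 1416 and 1391 at ZT12, and 1257, 873 and 1273 at ZT18.

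Orm2 in shifted low-fat offspring measured 8.85, 11.9 and 8.21 FPKM at ZT0, 11.6, 13.3 and 13.5 at ZT6, 12.98, 13.6 and 13.6 at ZT12, and 27.9, 26.3 and 35.8 at ZT18. As for Orm1, the 3 libraries at ZT18 lay above the others. Peak exceeded trough by 1.55 for Orm1 (ZT18 over ZT6, adjusted p = 0.00855) and by 1.52 for Orm2 (ZT18 over ZT0, adjusted p = 0.00298) on the log2 scale, and both were called in all alternatives run. The test of the difference between the shifted and control profiles was not passed by any member on the low-fat diet (0.046% of all genes), with an adjusted p of 0.166 for Orm1, 0.68 for Orm2 and 0.196 for Saa2.

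Saa4 was low at ZT0 and ZT6 and high at ZT12 and ZT18 in low-fat offspring. In shifted low-fat offspring it measured 58.6, 61.6 and 62.3 FPKM at ZT0, 38.8, 71.7 and 65.1 at ZT6, 121, 123 and 129 at ZT12, and 108, 113 and 141 at ZT18, so that the later 2 times lay above the earlier 2 in each library. In control low-fat offspring it measured 81.1, 39.6 and 37.3 FPKM at ZT0, 75.4, 52.3 and 51.7 at ZT6, 137, 155 and 82.9 at ZT12, and 76.8, 166 and 144 at ZT18, with overlap. The peak exceeded the trough by 1.17 (adjusted p = 0.0112) in shifted and by 1.38 (adjusted p = 0.0497) in control low-fat offspring on the log2 scale. The control call was lost when any of 9 of the 12 libraries was left out (adjusted p up to 0.105), with genes of low values kept (0.0983), with values as deposited (0.0816) and with a replicate block (0.0626).

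In shifted high-fat offspring Crp was the 1 member called for time of day (30.2% of all genes). It measured 216, 241 and 208 FPKM at ZT0, 171, 187 and 163 at ZT6, 166, 148 and 162 at ZT12, and 188, 216 and 210.1 at ZT18, and the 3 libraries at ZT0 lay above the 6 at ZT6 and ZT12. The peak exceeded the trough by 0.46 on the log2 scale (adjusted p = 0.0138). No member was called in control high-fat offspring (0.767% of all genes) or for the difference between the 2 high-fat profiles (0.0%, with 804 genes at an unadjusted p under 0.05).

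Members also varied together between replicates of the same arm and time. Saa1 was set against each of the others after the mean of each arm and time was removed, with libraries permuted within arm and time. In mothers Saa2 followed Saa1 closely (r = 0.974, rho = 0.96, permutation p = 2e-05, adjusted p = 0.000142 over the r and rho of the same 46 relations) and so did Lcn2 (r = 0.768, rho = 0.717, permutation p = 0.00418, adjusted p = 0.016). Without the 2 libraries farthest from the median of Saa1, which were control mothers at ZT0, r was 0.960 and 0.624. The transcripts of Saa1 and Saa2 are alike at 94.4% of aligned bases. Reads split between them can add to their relation, here and in offspring, and the size of that part was not tested. Orm1, Orm2, Saa4, Crp, Apcs and Hpx did not pass in mothers, with r between -0.060 and 0.329, and Hp had r = -0.19 (permutation p = 0.543), which became -0.68 without those 2 libraries.

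In the 48 offspring libraries Saa1 was followed by Saa2 (r = 0.826, rho = 0.811, permutation p = 1e-05, adjusted p = 9.2e-05), Hpx (r = 0.691, rho = 0.631, permutation p = 0.00041, adjusted p = 0.0021), Orm1 (r = 0.561, rho = 0.486, permutation p = 0.00825, adjusted p = 0.0281) and Orm2 (r = 0.452, rho = 0.588, permutation p = 0.00054, adjusted p = 0.00258). Without the 2 farthest libraries r was 0.781, 0.628, 0.462 and 0.405. For Lcn2 (r = 0.492, rho = 0.467) rho passed and r did not. Its permutation p was 0.0297 for r (adjusted p = 0.078) and 0.0135 for rho (adjusted p = 0.0415). For Apcs (r = 0.401, rho = 0.356) neither passed. Its permutation p was 0.0252 for r (adjusted p = 0.0702) and 0.0341 for rho (adjusted p = 0.0847). Saa4, with r = 0.056 (permutation p = 0.785), did not follow Saa1. In fetuses these relations were not computed, since Saa1 there rests on 0 to 8 fragments a library by the fitted step.

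**Figure D5:**
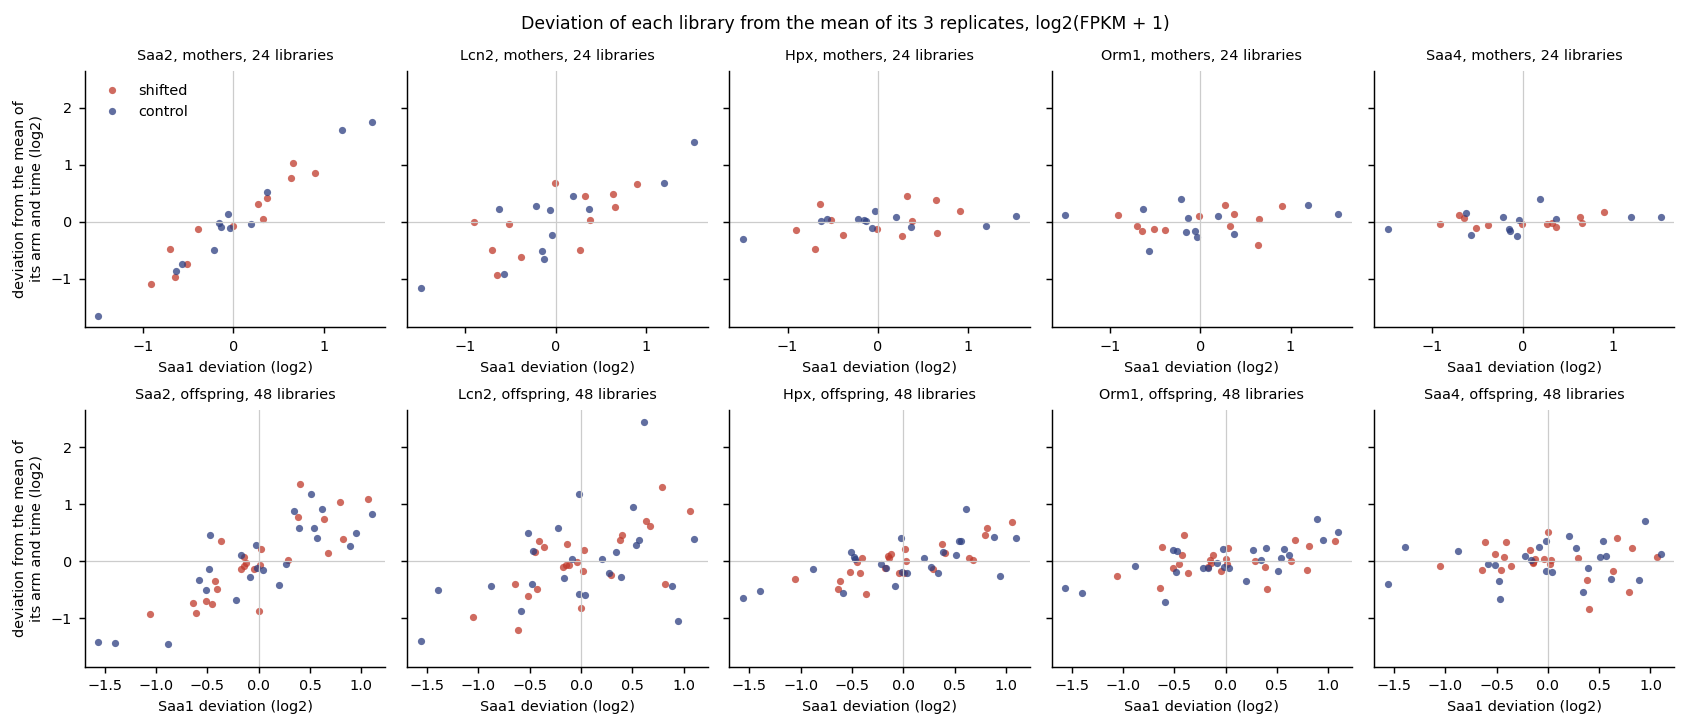
Deviation of each library from the mean of its 3 replicates on the log2(FPKM + 1) scale for 5 genes (y axes) against that of Saa1 (x axes), in 24 libraries of mothers (upper row) and 48 of offspring (lower row), red for shifted and blue for control. Saa2 rises with Saa1 in both stages, Hpx and Orm1 do so in offspring, and no relation of Saa4 with Saa1 passed the threshold.

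The summed level of 8 macrophage markers followed Saa1 in mothers as well (r = 0.554, rho = 0.640, permutation p = 0.014, adjusted p = 0.0417, r = 0.643 without the 2 libraries), a relation computed after the data were seen. That sum ran from 39.9 to 158 FPKM in shifted mothers and from 76.2 to 139 FPKM in control mothers, with none of the 8 markers at 0. For 11 neutrophil markers in mothers r was 0.597 (rho = 0.500, permutation p = 0.0521, adjusted p = 0.126). In offspring the macrophage sum (r = 0.331, permutation p = 0.0743, adjusted p = 0.171) and the neutrophil sum (r = 0.274, permutation p = 0.107, adjusted p = 0.214) did not pass. The part of these cells in the spread of Saa1 and Lcn2 was not tested. The genes outside the 10 whose deviations were most like those of Saa1 by Pearson's r were Cd14 (0.792), Ptprc (0.791), Ccdc122 (0.790), Tmsb4x (0.774) and Clec12a (0.767) over the 24 maternal libraries, and Slc41a2 (0.701), Mpeg1 (0.672), Cfi (0.644), Itih4 (0.611) and Ly6e (0.608) over the 48 offspring libraries.

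The cytokines that start the response had low levels in these livers. The 7 cytokine genes examined (Il6, Il1a, Il1b, Tnf, Osm, Lif and Il22) summed to at most 6.45 FPKM in any library, and Il22 was listed at 0 in all 96. Il1a averaged 2.37 ± 0.442 FPKM in shifted and 2.24 ± 0.456 FPKM in control fetuses. It averaged 0.839 ± 0.275 FPKM in shifted against 1.26 ± 0.509 FPKM in control high-fat offspring, lower by -0.27 (log2, adjusted p = 0.0435), and it was called for time of day in shifted high-fat offspring (adjusted p = 0.032). Both calls of Il1a were lost with values as deposited and with genes of low values kept. Among 18 receptor and signalling genes, of which 17 were tested in mothers and in fetuses and 18 in offspring, none was called between shifted and control mothers, fetuses or low-fat offspring in limma. Between shifted and control high-fat offspring 10 of the 18 were called, 6 higher and 4 lower, beside the 48.1% of all genes. Il6ra, the interleukin 6 receptor, averaged 5.40 ± 2.73 FPKM in shifted against 1.79 ± 0.959 FPKM in control high-fat offspring and was higher by 1.19 (log2, adjusted p = 2.86e-05), and Lifr, the receptor of leukemia inhibitory factor, was lower by -0.53 (adjusted p = 0.046). The call of Lifr was lost with values as deposited, with genes of low values kept, with the smaller pseudocount and with a replicate block.

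The C/EBP genes, whose products bind the motif shown above, were called in several comparisons. Cebpd was lower in shifted mothers (0.475 ± 0.238 against 1.001 ± 0.414 FPKM in control mothers, -0.43 on the log2 scale, adjusted p = 0.00221) and in shifted fetuses (1.83 ± 0.650 against 3.86 ± 1.29 FPKM in control fetuses, -0.77, adjusted p = 0.00303). In mothers Cebpd lay near the filter limit of 1 FPKM and passed the filter through the control libraries. Its call in mothers therefore adds nothing to the levels given. Cebpb was lower in shifted high-fat offspring (15.1 ± 7.83 against 29.3 ± 18.9 FPKM in control high-fat offspring, -0.81, adjusted p = 0.00439), and higher on the high-fat diet in offspring of control mothers (29.3 ± 18.9 against 12.5 ± 6.05 FPKM on the low-fat diet, 1.07, adjusted p = 0.00256). With GC and length trends removed, Cebpb in this diet comparison missed the threshold.

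Of 19 other genes that rise in the acute phase, 2 were called in shifted mothers (beside 7.91% of all genes, 3.49% higher), the metallothioneins Mt1 (0.66, adjusted p = 0.0419) and Mt2 (0.89, adjusted p = 0.0055), both higher. The call of Mt1 was lost in 4 of the alternatives that kept all libraries. In shifted high-fat offspring 10 of 19 were called, 7 higher and 3 lower, a share near the 48.1% of all genes (26.3% higher and 21.9% lower). Serpina3m, a serine protease inhibitor gene, was higher by 0.75 (adjusted p = 6.72e-05) and Itih4, an inter-alpha-trypsin inhibitor heavy chain gene, by 0.47 (adjusted p = 0.00159), and Lrg1 and Mbl1 were lower by -0.46 (adjusted p = 0.00151) and -0.41 (adjusted p = 3.27e-05). Of 8 genes that fall in the acute phase, 5 were called in shifted high-fat offspring and all 5 were lower, beside 48.1% of all genes called and 21.9% called lower, with a median difference of -0.41 over the 8 against 0.0111 over all genes. They were Fetub (-1.01), Apoa1 (-0.84), Ttr (-0.53), Rbp4 (-0.46) and Ahsg (-0.36), of which Rbp4 and Ahsg, like Lrg1 above, were not called with values as deposited or with GC and length trends removed, nor Mbl1 with values as deposited. Of the 5, Fetub averaged 189 ± 43.1 FPKM in shifted and 387 ± 114 FPKM in control high-fat offspring (adjusted p = 1.78e-08). For the 10 members the median in that comparison was -0.12.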

How the data were processed

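Liver poly(A) RNA of 96 libraries was measured by stranded RNA-seq. The authors deposited FPKM values, 1 table per arm, made with TopHat2 2.1.1 and Cufflinks 2.2.1 on mm10, per the submitters' processing notes. Of 24883 entries per table, 817 whose symbol recurs (280 symbols) were left out, which left 24066 genes. Each library was divided by a median-of-ratios factor within its comparison, genes with FPKM of at least 1 in 3 libraries were kept, and log2(FPKM + 1) was tested with limma 3.58.1 (R 4.3.3, trend) with Benjamini-Hochberg adjustment over all genes and a threshold of 0.05. Differences on this scale understate the change of low genes. Times were tested by F tests, and relations by 100000 permutations, within arm and time in mothers and offspring and over all libraries of a cluster in fetuses, exact in the cluster of 7, (Python 3.11.15, numpy 2.4.6). The scripts were tested on simulated data. The same tests were rerun with 0.1 in place of 1 as the pseudocount, with genes of low values kept, on unscaled FPKM (as deposited), with a replicate block, with fits of 2 arms, with cosine and sine terms with a period of 24 h, summed copies, each library left out and, chosen after seeing the data, removal of GC and length trends (splines with 4 degrees of freedom) and relations with marker sums and with fetal Hp. The members, gene lists and tests were chosen with earlier results of these data known. Values are named for the 10 members and for called genes of the lists.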

Additional observations from a re-analysis of the deposited data

Results flagged for a closer look

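Effects that differed between groups by a test of the difference itself (limma, Benjamini-Hochberg adjusted p under 0.05) were seen for 1 member and 12 genes of the related lists. In mothers the daily profile of Mt2, a metallothionein gene, differed between the shifted and control schedules (3.23 on the log2 scale for the largest against the smallest difference over ZT, adjusted p = 0.00424). In offspring the shifted minus control difference on the high-fat diet less that on the low-fat diet was -0.74 for Orm1 (adjusted p = 0.00702), the 1 member among them.

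Among genes that fall in the acute phase the same interaction was -0.85 for Fetub (adjusted p = 0.000569), -0.82 for Apoa1 (0.00183), -0.54 for Ttr (0.0158), -0.45 for Rbp4 (0.0185) and -0.42 for Ahsg (0.0470), so that 5 of the 8 were called and all 5 were negative. Among the other genes it was -0.95 for Lifr (0.0245), -0.50 for Cebpd (0.0320), -0.37 for Mbl1 (0.0101), 0.34 for Cp (0.0403), 0.82 for Nr3c1, the glucocorticoid receptor gene (0.00609), and 0.91 for Il6ra (0.0274). Of all genes, 24.2% were called in this test.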

How the results depend on the processing

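The number of members called moved with the processing as follows. With no filter on low values it was 1 for the difference of daily profiles in mothers (0 as reported), 0 for time in control mothers (1), 3 for the schedule on the high-fat diet (5), 1 for diet in offspring of control mothers (2) and 0 for time in control low-fat offspring (1). With values as deposited it was 2 for the schedule on the high-fat diet, 3 for diet in offspring of control mothers, 0 for time in control low-fat offspring, 4 for time in shifted low-fat offspring (3 as reported) and 10 for each comparison of fetuses with mothers (9). With GC and length trends removed it was 2 for the schedule on the high-fat diet, 1 for diet in offspring of control mothers and 0 for the interaction (1 as reported). A fit of 2 arms gave 1 for diet in offspring of control mothers and 4 for the schedule on the high-fat diet. A pseudocount of 0.1 gave 4 for the schedule on the high-fat diet and 3 for diet in offspring of shifted mothers (4 as reported), which was also 3 with no filter. Leaving out 1 library at a time gave 0 to 1 for profiles in mothers, 0 to 2 for time in control mothers, 3 to 5 for the schedule on the high-fat diet, 1 to 4 for diet in offspring of control mothers, 3 to 4 in offspring of shifted mothers, 1 to 2 for the interaction, 0 to 3 for time in control and 3 to 4 in shifted low-fat offspring, and 1 to 3 in shifted high-fat offspring. The cause was not tested.

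Signs turned for Orm2 under the schedule on the high-fat diet (-0.56 with Orm1 and Orm2 summed, -0.28 to 0.18 with 1 library left out) and for Apcs in shifted fetuses less mothers (0.78 as deposited, 0.11 with GC and length trends removed, -0.26 to 0.19 with 1 library left out). They were not the only ones. Of 56 member differences that were not called, 11 changed sign in an alternative that kept all libraries and unsummed copies. These include that of Apcs, Saa4 (-0.26 as reported) and Lcn2 (0.016) under the schedule on the high-fat diet, and Hpx in mothers (0.056). Without the 2 farthest libraries r became 0.080 for Saa1 with Crp and -0.32 for Saa1 with Apcs in mothers, and 0.26 for Hp with Orm1 in the 7 fetal libraries low in Hp.

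Replicate numbers recur in all groups, but libraries of the same number did not deviate together (median r of -0.0518 in mothers, 0.0385 in fetuses and -0.00224 in offspring). With a replicate block 0 members were called for time in control mothers and 0 for time in control low-fat offspring, 4 for the schedule on the high-fat diet and 3 for diet in offspring of shifted mothers. Depth per library is unknown, which limits the low values of Saa1, Saa2 and Orm2 in fetuses.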
